A study of Homo sapiens with 6 samples.

Results

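The genes described here are targets of the tumour suppressor p53 that do not belong to the apoptosis gene families. They were chosen by name, as a list of 35 symbols, and each was read from the probe sets annotated with that symbol alone. Of the 35 genes, 32 had such a probe set among the 18244 genes tested, and BTG2, FDXR and FAS-AS1 were not analysed here. Expression was measured on Affymetrix arrays in A549, a widely used line from a human lung adenocarcinoma. KD cells (3 samples) carried a lentiviral short hairpin against MRPL35, which encodes a protein of the mitochondrial ribosome's large subunit, and NC cells (3 samples) carried a lentiviral control hairpin. Both groups therefore went through viral delivery of a hairpin, in RPMI-1640 medium with serum. The labels name 1 hairpin against MRPL35, so an effect of its sequence on other transcripts and the loss of MRPL35 cannot be told apart. How long after infection the RNA was taken is not stated in the labels.

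The protein p53 is a transcription factor that stays scarce in unstressed cells because MDM2, a ubiquitin ligase whose own gene p53 activates, marks it for destruction. When stress frees p53 from MDM2, it binds paired decamer sequences near its target genes and raises their transcription. Targets outside the death pathways act in cell cycle arrest, DNA repair, mitochondrial upkeep and metabolism, and several feed back on p53 itself. A549 cells are known to carry an unmutated p53 gene and to lack the CDKN2A locus, which encodes an inhibitor of MDM2.

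The targeted gene was lower in every KD array, as the labels state. MRPL35 read 6.49, 6.44 and 6.56 in the 3 KD arrays, against 8.16, 8.05 and 8.36 in the 3 NC arrays on the log2 scale. On this probe set, its brightest, the KD cells kept 30.9% of the NC signal (limma, adjusted p = 3.77e-06). Its other probe sets were also called lower, at 25.4%, 38.6% and, on the dimmest, 74.8% of the NC signal. Along the second principal component over all genes, which carried 11.8% of the variance, NC replicate 2 lay at -23.0 and the other 5 arrays between -5.06 and 12.7. It also held the lowest NC value for 20 of the 32 p53 targets. Epithelial markers other than EPCAM were expressed at levels that fitted the A549 label. Gene means of all 6 lay between 6.08 and 13.9 in KD and between 5.87 and 13.4 in NC, with EPCAM lowest and KRT18 highest. The leukocyte marker CD68 averaged 7.03 in KD and 6.88 in NC, above EPCAM. In KD against NC, 4 of the 6 epithelial markers were called higher, CDH1 by 1.31, beside 17.6% of all genes. Of the markers of other cell types, 5 of 6 fibroblast, 3 of 5 leukocyte and 5 of 6 endothelial genes lay below the 40th percentile of gene levels, which is 5.41. The mean of the fibroblast markers was 3.956 to 3.9999 in KD arrays and 3.99 to 4.19 in NC arrays, that of the leukocyte markers 4.56 to 4.60 in KD arrays and 4.39 to 4.60 in NC arrays, and that of the endothelial markers 4.43 to 4.50 in KD arrays and 4.42 to 4.69 in NC arrays. Of these 17 genes CD14 alone passed the test, at a change of 0.60, and the part of other cells in the results below was not tested. As a check of RNA degradation, ACTB probe sets at the 3′ end exceeded those at the 5′ end by 0.63 ± 0.044 in KD cells and 0.58 ± 0.082 in NC cells (SD, n = 3 each). For GAPDH the same difference was 0.086 ± 0.035 in KD cells and 0.012 ± 0.050 in NC cells. Separate cultures are not mentioned in the labels, so the p-values measure only how these samples scatter, and that scatter may be technical. In such bulk RNA, fewer cells that express a gene and less RNA per cell cannot be told apart.

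Most of the p53 targets were higher in the knockdown cells. Of the 32 genes 20 rose, 2 fell and 10 did not pass the test (limma, adjusted p under 0.05 over all genes tested, as for every call on a gene below). Among all genes 17.6% were called higher and 15.9% lower, 33.5% in all. Without NC replicate 2, 21 of the 32 were called higher and 3 lower. The median change of the 32 genes was 0.39 on the log2 scale, or 1.31-fold, beside a median of -0.018 over all genes tested. Values of all KD arrays lay above those of all NC arrays for 22 of the 32 genes and below them for 2, against 23.2% and 21.5% of all genes. Read from the brightest probe set of each gene, at least 2-fold rises were found for 7 of the 32. These were TP53INP1, ZMAT3, CYFIP2, SPATA18, TIGAR, CMBL and SESN1, and among all genes 2.27% rose that far. No measured member changed by -1 or less, the lowest being -0.84, while 3.09% of all genes fell at least 2-fold. Changes below are log2 KD minus NC ± standard error from the fit, with 3 arrays per group, and levels are log2 probe-set values.

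**Figure D1:**
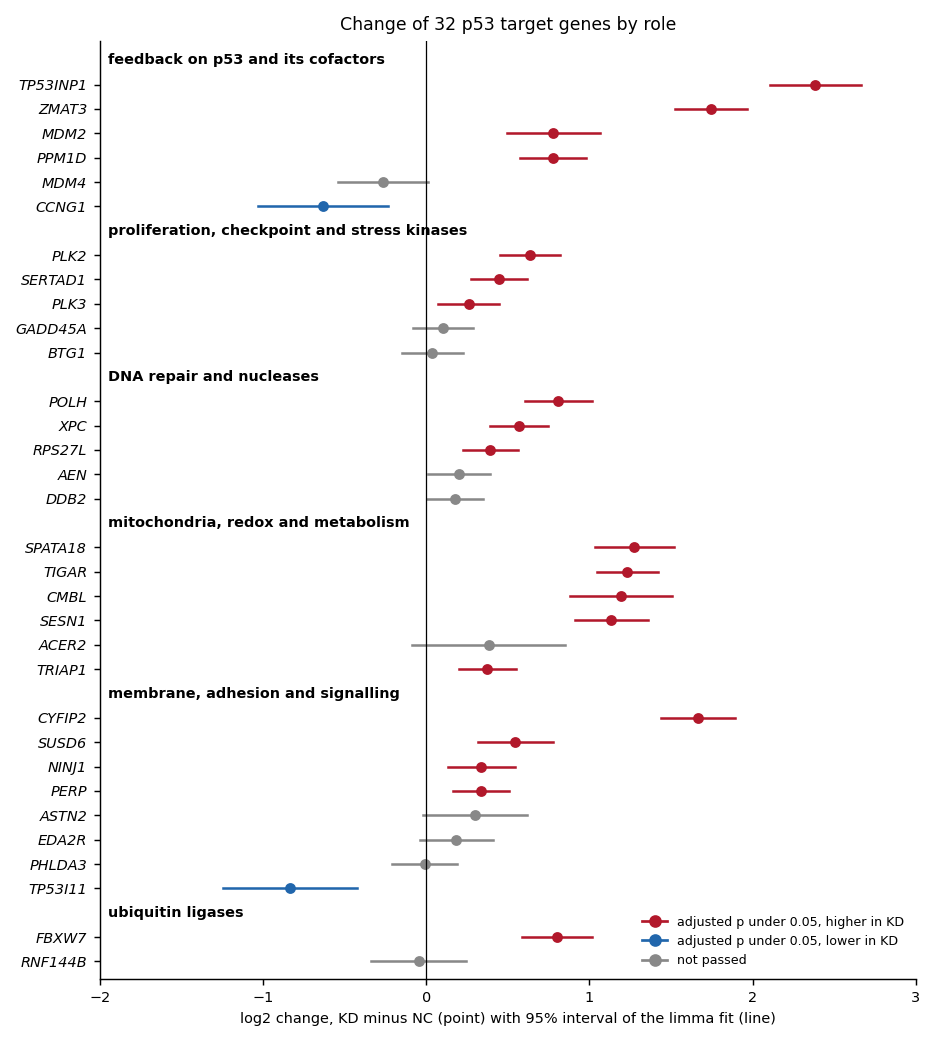
Change of each of the 32 p53 target genes, grouped by role. The x axis is the log2 change, KD minus NC, points are the fitted changes and lines their 95% intervals; 20 genes in red rose, 2 in blue fell and 10 in grey did not pass, and the largest change is that of TP53INP1 at 2.38.

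Genes that feed back on p53 or act with it held both the largest rise and a fall. TP53INP1, a stress protein that promotes p53 phosphorylation and takes part in autophagy, read 10.62, 10.50 and 10.53 in KD arrays, against 8.21, 7.90 and 8.39 in NC arrays. It was 5.22-fold higher (2.38 ± 0.12, limma adjusted p = 2.36e-06), with the KD arrays close together and far above every NC array. Its other, much dimmer probe set, at 0.13, did not pass. ZMAT3, a zinc finger protein that binds RNA and regulates splicing, read 9.30, 9.39 and 9.17 in KD arrays, against 7.56, 7.40 and 7.65 in NC arrays. It rose by 1.75 ± 0.097 (limma adjusted p = 3.42e-06), with a wide gap between the groups.

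MDM2 read 8.34, 8.04 and 8.05 in KD arrays, against 7.60, 7.23 and 7.27 in NC arrays. Replicate 1 was the highest array of each group, and the groups did not overlap. The gene was 1.71-fold higher (0.78 ± 0.13, limma adjusted p = 0.00125). PPM1D, the phosphatase that removes activating phosphates from p53 and from the kinases upstream of it, changed to the same extent, 1.71-fold (0.78 ± 0.089, limma adjusted p = 0.000172). MDM4, the relative of MDM2 that binds p53 and blocks its activation of genes, did not pass. It read 7.24, 7.21 and 7.17 in KD arrays, against 7.66, 7.19 and 7.55 in NC arrays, where NC replicate 2 alone fell within the KD values. Its change of -0.26 had a 95% interval of -0.54 to 0.0082 (limma adjusted p = 0.135), and without NC replicate 2 it was called lower at -0.40 (limma adjusted p = 0.00298). Array weights also called it lower, at -0.38 (adjusted p = 0.00625), while the mean of its probe sets gave -0.076 (0.517). The within-array difference MDM2 minus MDM4 was 0.83 to 1.10 in KD arrays and -0.29 to 0.038 in NC arrays. The change of MDM2 exceeded that of MDM4 by 1.04 ± 0.16 (pooled SD of the difference, n = 3 each), and the exact two-sided permutation test gave p = 0.1, also after adjustment over the 2 pairs of related genes compared, which is the smallest that 3 against 3 arrays allow.

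CCNG1, cyclin G1, which helps to activate MDM2, was 1 of the 2 genes that fell. It read 8.71, 8.92 and 8.76 in KD arrays, against 9.78, 9.003 and 9.51 in NC arrays. NC replicate 2 lay just above the highest KD array, the other NC arrays well above it, and the fall was 0.63 ± 0.18 on the log2 scale (change of -0.63, limma adjusted p = 0.0214). The call was lost when KD replicate 1 or 3 was left out (adjusted p of 0.0718 and 0.0669) or NC replicate 1 or 3 (0.0639 and 0.0807), and the change was -0.85 without NC replicate 2. All 4 of its other probe sets were called lower, with changes of -0.76 to -0.58.

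**Figure D2:**
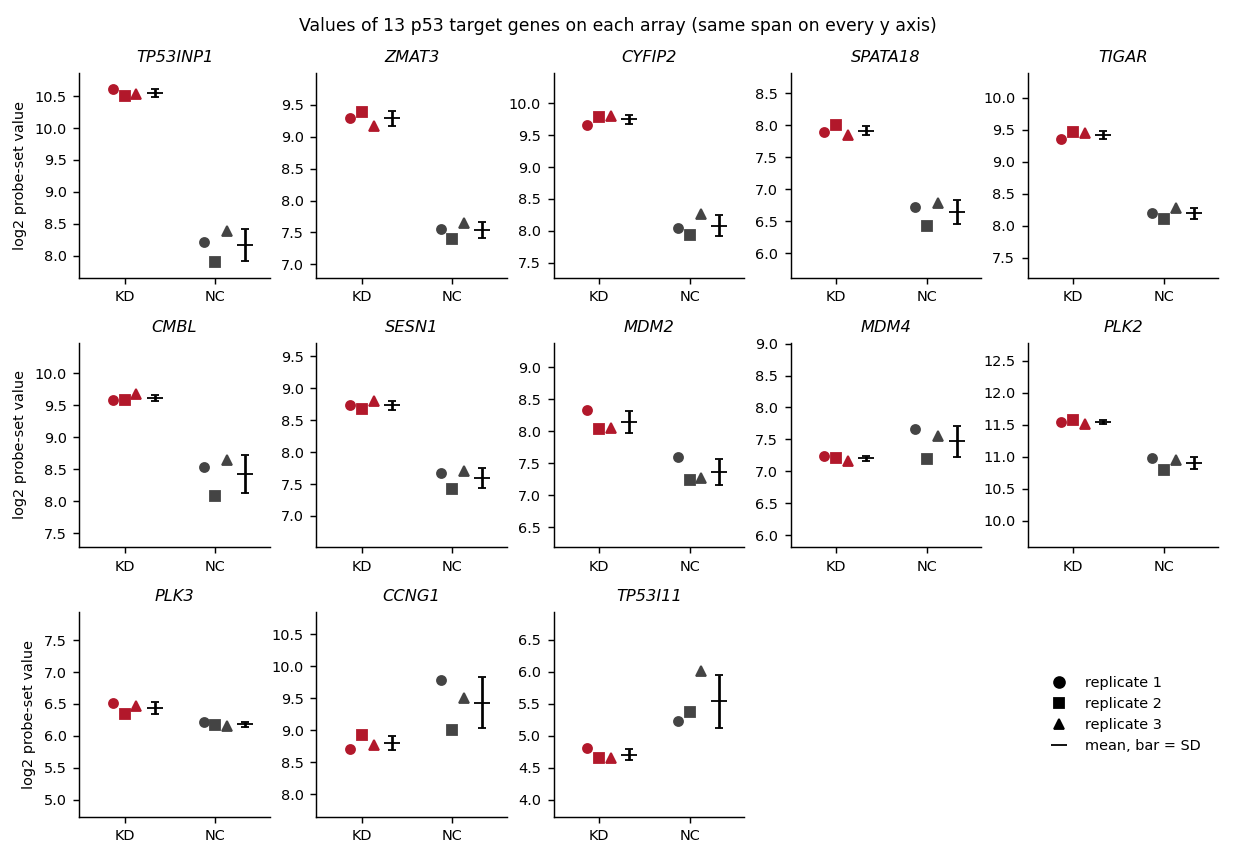
Values on each array for the 7 genes that rose at least 2-fold, for MDM2, MDM4, PLK2 and PLK3, and for the 2 genes that fell. The y axes give log2 probe-set values over the same span, marker shapes are replicates, and horizontal marks with bars are means with SD; the KD and NC values separate in every panel except that of MDM4.

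The MDM2 promoter that p53 controls is shown because its sequence holds a match to the p53 consensus and the gene rose. Capitals mark only the match found by the search described below. That search kept the core CNNG of each decamer, so a p53 site without that core stays in lower case. MDM2 has a second transcription start inside its first intron. The last 184 bases before that start in its RefSeq window (GRCh38.p14, chr12:68808833-68809016, plus strand, 5′ to 3′) read as follows, with the matched p53 site in capitals.
MDM2: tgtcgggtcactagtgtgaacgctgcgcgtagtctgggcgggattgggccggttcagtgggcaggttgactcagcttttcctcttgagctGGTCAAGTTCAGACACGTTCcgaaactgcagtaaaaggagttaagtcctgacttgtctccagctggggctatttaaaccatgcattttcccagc

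The windows of the other genes were searched for the same kind of site. A site was taken as 2 p53 decamer consensus sequences side by side, 20 bases in all, with the core CNNG of each kept and up to 3 mismatches elsewhere. The consensus is its own reverse complement, so 1 search covers both strands, and overlap with other motifs was not examined. RefSeq windows from 250 bases before to 50 bases after a start were at hand for 31 of the 35 genes, 28 of them with array values. A site lay in the windows of 7 genes, beside 1.37% of all 27305 genes in the table. With up to 2 mismatches it lay in 3 of them, MDM2, DDB2 and AEN, beside 0.359% of all genes. The other 6 sites are given to show how close each comes to the consensus, 5′ to 3′ on the gene's strand, with the site in capitals and 5 flanking bases on each side.
AEN, chr15:88621306-88621325, plus strand, 2 mismatches: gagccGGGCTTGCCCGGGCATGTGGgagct
DDB2, chr11:47214969-47214988, plus strand, 1 mismatch: gctccAAGCTGGTTTGAACAAGCCCtgggc
SESN1, chr6:109009018-109009037, minus strand, 3 mismatches: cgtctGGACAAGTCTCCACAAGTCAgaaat
RPS27L, chr15:63157527-63157546, minus strand, 3 mismatches: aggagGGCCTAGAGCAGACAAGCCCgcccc
FDXR, chr17:74872996-74873015, minus strand, 3 mismatches: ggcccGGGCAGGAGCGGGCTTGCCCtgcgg
ASTN2, chr9:116687227-116687246, minus strand, 3 mismatches: ctcccCAGCATGCTGGGGCTTGTCGtgcag

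Of the genes with such a match, MDM2, SESN1 and RPS27L rose, AEN, DDB2 and ASTN2 did not pass, though DDB2 and ASTN2 passed under some alternatives, and FDXR, a mitochondrial reductase, was not analysed here. A match therefore stood in 3 of the 18 genes with a window that rose and in 3 of the 8 that did not pass. The site of DDB2, with 1 mismatch, came nearest to the consensus. A match in the window is a description of letters and not evidence of binding. A window with no match says nothing of sites that lack the core or lie elsewhere in the gene.

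Genes listed under proliferation, checkpoints and stress kinases changed by less than 2-fold. PLK2, a polo-like kinase induced by stress, read 11.54, 11.57 and 11.51 in KD arrays, against 10.97, 10.80 and 10.94 in NC arrays. Its rise of 0.64 ± 0.081 (limma adjusted p = 0.000308) was several times the spread of either group. PLK3, a related kinase, read 6.52, 6.34 and 6.47 in KD arrays, against 6.22, 6.18 and 6.15 in NC arrays, and rose by 0.26 ± 0.081 (limma adjusted p = 0.0362). Its groups did not overlap, but the call was lost when KD replicate 1 or 3 was left out (adjusted p of 0.135 and 0.128) or NC replicate 1 or 3 (0.0640 and 0.0900), with median centring (0.0558) and with trend and robust fitting (0.0721). The change of PLK2 exceeded that of PLK3 by 0.38 ± 0.10 (pooled SD of the within-array difference, n = 3 each), with an exact permutation p of 0.1. SERTAD1, which binds the kinase CDK4, rose by 0.45 ± 0.076 (limma adjusted p = 0.00161). GADD45A, a stress sensor that binds the replication clamp, averaged 9.35 ± 0.061 in KD and 9.25 ± 0.081 in NC (SD, n = 3 each), and its change of 0.10 had a 95% interval of -0.080 to 0.29. BTG1, an antiproliferative partner of the deadenylase complex that shortens messenger tails, averaged 9.99 ± 0.042 in KD and 9.95 ± 0.098 in NC, with an interval of -0.15 to 0.22. For both genes the KD and NC arrays overlapped and a change as large as that of PLK2 lay outside the interval.

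The list of DNA repair and nuclease genes also holds RPS27L, a close copy of a small-subunit ribosomal protein. All KD arrays lay above all NC arrays for each of its 5 genes, beside 23.2% of all genes, and POLH, XPC and RPS27L passed the test. POLH, the polymerase that copies past ultraviolet lesions, read 6.39, 6.54 and 6.53 in KD arrays, against 5.80, 5.63 and 5.60 in NC arrays. It rose by 0.81 ± 0.089 (limma adjusted p = 0.000134). This probe set has an x suffix, and the next brightest, which has none, gave 0.34 (limma adjusted p = 0.0129). Its still dimmer probe sets were called higher at 0.92, without an x or s suffix, and at 0.99, with an x suffix. XPC, which finds distorted DNA for nucleotide excision repair, rose by 0.57 ± 0.079 (limma adjusted p = 0.000529). RPS27L rose by 0.39 ± 0.074 (limma adjusted p = 0.00297). DDB2, which recognises ultraviolet damage ahead of XPC, read 9.97, 9.97 and 9.97 in KD arrays, against 9.74, 9.76 and 9.88 in NC arrays. Its KD arrays were almost identical, its change was 0.18 ± 0.076, and it did not pass (limma adjusted p = 0.118). The same probe set was called higher with trend and robust fitting (adjusted p = 0.0300), as was the mean of its probe sets at 0.22 (0.0326). Its other probe set was called higher at 0.27 (limma adjusted p = 0.0427 over all probe sets). AEN, a nuclease that cuts DNA and RNA, changed by 0.20 ± 0.084 and did not pass (limma adjusted p = 0.109), with KD replicate 3 at 8.57 close to NC replicate 3 at 8.54.

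Of 6 genes of mitochondrial upkeep, redox balance and metabolism, 5 were called higher, 4 of them at least 2-fold on their brightest probe set. Among all genes these shares were 17.6% and 2.27%. SPATA18, known also as Mieap, which acts in the removal of damaged mitochondrial proteins, read 7.90, 8.001 and 7.85 in KD arrays, against 6.72, 6.43 and 6.78 in NC arrays. It was 2.42-fold higher (1.28 ± 0.11, limma adjusted p = 2.91e-05). TIGAR, which lowers a sugar phosphate that drives glycolysis, read 9.36, 9.47 and 9.45 in KD arrays, against 8.20, 8.10 and 8.28 in NC arrays. It was 2.35-fold higher (1.23 ± 0.082, limma adjusted p = 9.39e-06). The other probe set of TIGAR, nearly as bright, was called higher at 0.92, or 1.89-fold. In both genes the spread within a group was a small part of the gap between groups.

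SESN1, a sestrin that restrains the growth kinase complex mTORC1, read 8.73, 8.67 and 8.80 in KD arrays, against 7.68, 7.42 and 7.70 in NC arrays. It was 2.20-fold higher (1.14 ± 0.098, limma adjusted p = 3.49e-05). CMBL, a hydrolase of the liver and other tissues, read 9.58, 9.59 and 9.67 in KD arrays, against 8.54, 8.08 and 8.64 in NC arrays. It was 2.29-fold higher (1.19 ± 0.14, limma adjusted p = 0.000181), but this rests on a probe set whose suffix marks possible hybridisation to other transcripts, and its other, dimmer probe set changed by 0.069 without passing. TRIAP1, a small protein of the mitochondrial intermembrane space that takes part in lipid transfer, rose by 0.37 ± 0.076 (limma adjusted p = 0.00432). ACER2, a ceramidase of the Golgi, was dim and scattered in the control, with 4.80, 5.08 and 4.94 in KD arrays, against 4.12, 5.06 and 4.48 in NC arrays. It did not pass (0.38 ± 0.21, limma adjusted p = 0.212). Without NC replicate 2 it was called higher at 0.64 (limma adjusted p = 0.00330), and its 2 other probe sets, dimmer still, were called higher at 0.81 and 0.62.

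**Figure D3:**
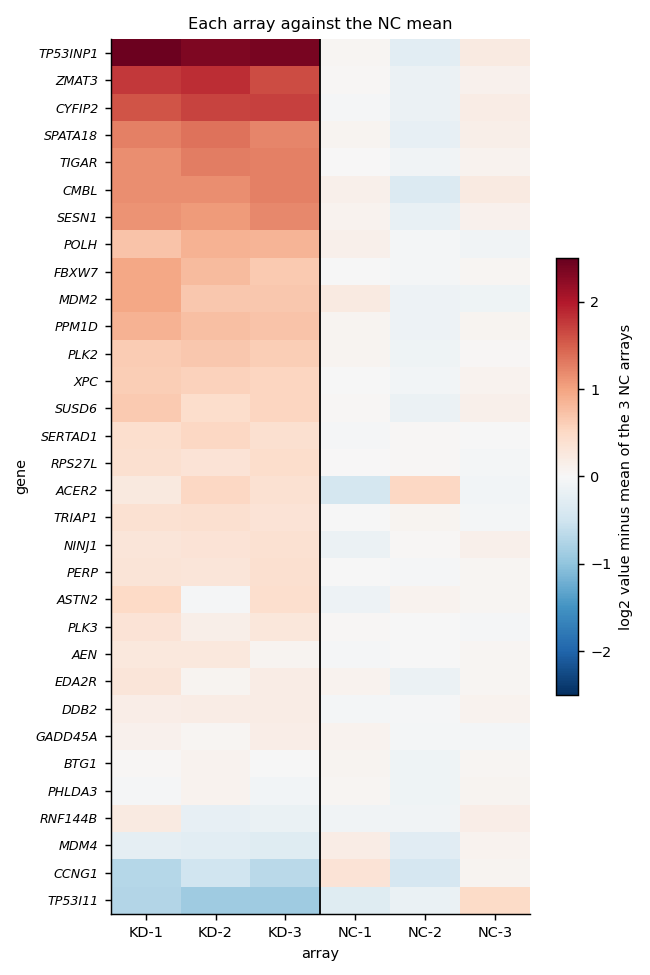
Heat map of the 32 genes, ordered by their change. Colour is the log2 value of each array minus the mean of the 3 NC arrays; the KD columns on the left are alike for most genes, and in the NC-2 column 20 of the 32 genes hold their lowest NC value.

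Among membrane, adhesion and signalling genes 4 of 8 rose and 1 fell, beside 17.6% and 15.9% of all genes. CYFIP2, a subunit of the WAVE complex that controls actin assembly, read 9.66, 9.78 and 9.80 in KD arrays, against 8.05, 7.94 and 8.26 in NC arrays. It was 3.17-fold higher (1.67 ± 0.10, limma adjusted p = 5.15e-06), well clear of the NC range. Its other probe sets were called higher at 1.75, 0.64 and 0.90, so the size of the rise depended on the probe set. SUSD6, a membrane protein with a sushi domain, rose by 0.54 ± 0.10 (limma adjusted p = 0.00270). NINJ1, which ruptures the plasma membrane of dying cells, rose by 0.34 ± 0.090 (limma adjusted p = 0.0184), a call lost when KD replicate 2 or 3 was left out (adjusted p of 0.0594 and 0.0753) or NC replicate 1 (0.0608). PERP, a protein of desmosomes, rose by 0.34 ± 0.076 (limma adjusted p = 0.00780).

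TP53I11, a membrane protein, was the other gene that fell. It read 4.81, 4.66 and 4.65 in KD arrays, against 5.23, 5.37 and 6.01 in NC arrays, and its change was -0.84 ± 0.18 (limma adjusted p = 0.00629). NC replicate 3 stood well above the other NC arrays, and the gene lies below the 40th percentile of levels. Its 2 other probe sets changed by -0.28 (x suffix) and 0.12 (no x or s suffix) and neither passed. The fall therefore rests on 1 dim probe set, which has an x suffix. EDA2R, a receptor of the tumour necrosis factor receptor family, changed by 0.18 ± 0.098 without passing, with overlapping groups. PHLDA3, which keeps the kinase AKT from the membrane, averaged 9.61 ± 0.083 in KD and 9.62 ± 0.099 in NC (SD, n = 3 each), and the 95% interval of its change was -0.21 to 0.19. ASTN2, best known from migrating neurons, changed by 0.30 ± 0.14 and did not pass (limma adjusted p = 0.145). Its 3 probe sets disagreed, with changes of 0.30, -0.034 and 0.63, and their mean was called higher (adjusted p = 0.0385). Without KD replicate 2, which read 6.17 beside 6.70 and 6.62 in the other KD arrays, it was called higher at 0.46 (limma adjusted p = 0.0133).

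Of the ubiquitin ligase genes, FBXW7, the subunit that picks cyclin E and MYC for destruction, averaged 6.95 ± 0.16 in KD and 6.15 ± 0.044 in NC (SD, n = 3 each). It rose by 0.80 ± 0.095 (limma adjusted p = 0.000211), with all KD arrays above all NC arrays. RNF144B, a dim gene, read 4.96, 4.54 and 4.58 in KD arrays, against 4.66, 4.66 and 4.90 in NC arrays. Its arrays were interleaved and its change of -0.047 had a 95% interval of -0.34 to 0.25.

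Other probe sets of the same genes gave a second reading of the transcripts in the same RNA. The 32 genes had 90 probe sets, 58 of them besides those used above. Of 35 other probe sets for the genes that rose, 32 were called higher and 3 did not pass (limma, adjusted over the 45278 probe sets with 1 symbol, of which 16.7% were called higher and 14.3% lower). MDM2 had the most, and all 10 of its other probe sets were called higher, with changes of 0.44 to 1.31. The 3 that did not pass were those of TP53INP1 (0.13) and CMBL (0.069) and 1 of PERP (0.043). The genes PLK3, TRIAP1, NINJ1, SERTAD1 and SUSD6 rest on 1 probe set each, and 8 of the 20 genes that rose were read from a probe set with an x or s suffix, which can hybridise to several transcripts. Both genes that fell, CCNG1 (s suffix) and TP53I11 (x suffix), were also read from such a probe set. MDM4 was divided, with 2 of its 5 other probe sets called lower and 3 not passing, over a range of -0.34 to 0.27.

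**Figure D4:**
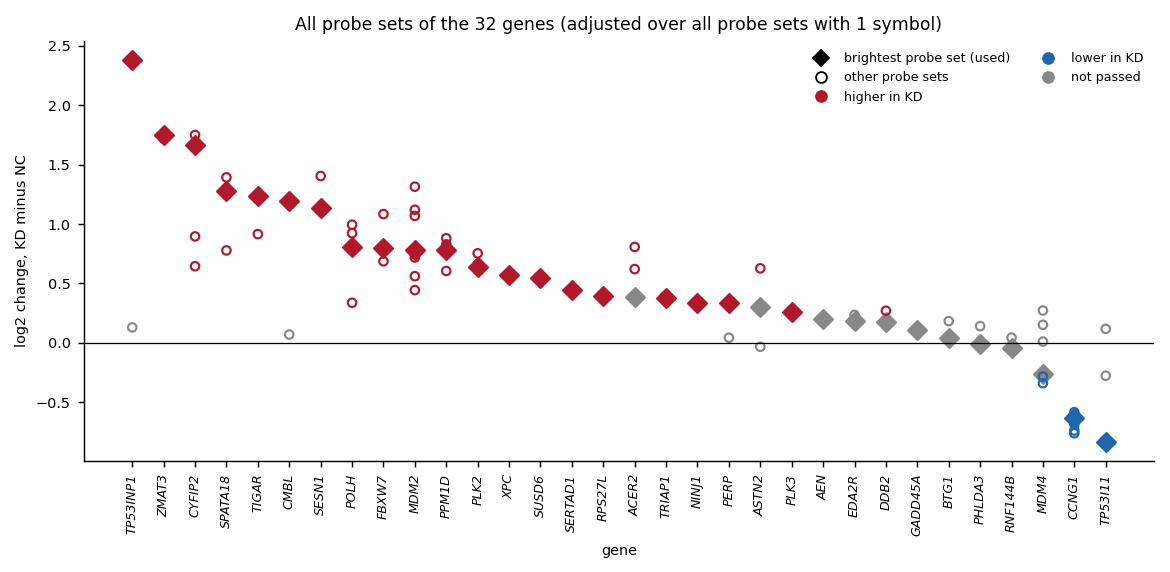
Log2 change, KD minus NC, of every probe set of the 32 genes, ordered by the probe set used. Diamonds are the brightest probe set of each gene, circles the others, and colours mark calls over all probe sets with 1 symbol; the 11 diamonds and circles of MDM2 all lie above 0.4, while those of TP53INP1 and CMBL split.

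Of 20 p53 targets outside the list, most were also higher. They include arrest genes and apoptosis-family genes, and also genes of redox and nucleotide metabolism and stress response such as TP53I3, AIFM2, RRM2B, SESN2 and GDF15. Of the 20 genes 13 rose and 0 fell, beside 17.6% and 15.9% of all genes, and their median change was 0.66. At an unadjusted p under 0.05 the fit counted 1 of them as lower, PMAIP1 at -0.25 (limma adjusted p = 0.0911), and several alternatives to the fit also called 1 lower. TP53I3, a quinone reductase, changed most (1.59 ± 0.10), followed by AIFM2, a redox enzyme of membranes (1.34 ± 0.087), the death receptor gene FAS (1.27 ± 0.074) and the decoy receptor gene TNFRSF10D (1.15 ± 0.080). CDKN1A, the CDK inhibitor p21, rose by 1.04 ± 0.081. Since this list and that of the 32 genes were drawn up with earlier results of these arrays known, neither is independent evidence of its direction.

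A list of p53 regulators, which also holds its relative TP73, had 23 measured genes. Of these, 1 rose and 8 fell, beside 17.6% and 15.9% of all genes, and the median change was -0.13. Whether genes of this list are themselves p53 targets was not tested. The falls numbered 5 without KD replicate 3 or without NC replicate 3. RCHY1, a ubiquitin ligase for p53, rose by 1.44 ± 0.13 (limma adjusted p = 5.43e-05). The acetyltransferase gene CREBBP (-0.73 ± 0.095), the deacetylase gene SIRT1 (-0.68 ± 0.094) and the checkpoint kinase gene CHEK1 (-0.55 ± 0.084) fell most. ATM, the kinase that signals DNA breaks to p53, was at 0.053 ± 0.11 and its groups overlapped. CDKN2A read 4.43 ± 0.14 in KD and 4.41 ± 0.019 in NC (SD, n = 3 each). The gene that encodes p53 itself was not analysed here, and RNA levels do not show the amount or activity of the protein.

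**Figure D5:**
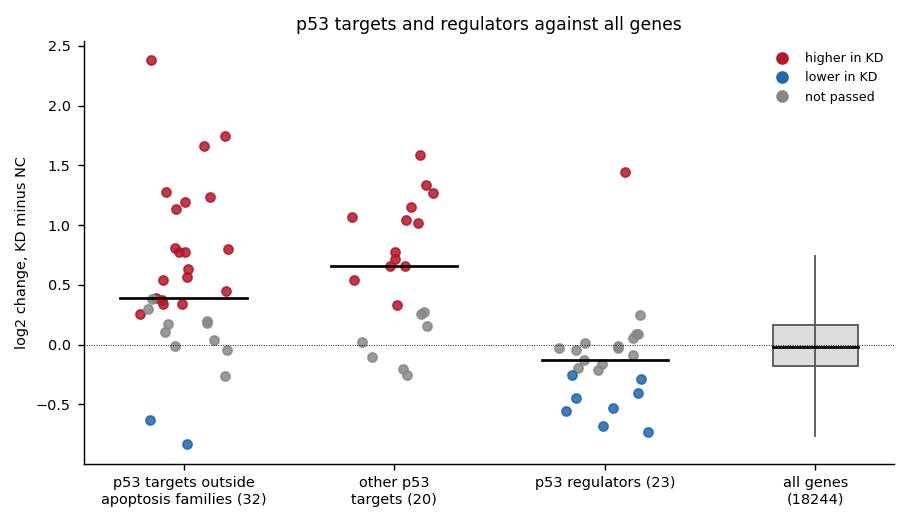
Log2 change, KD minus NC, of the 32 p53 targets described, of 20 other p53 targets and of 23 genes listed as p53 regulators, beside all 18244 genes. Points are genes, short lines medians (0.39, 0.66 and -0.13), the grey box spans the 25th to 75th percentile of all genes and its whisker the 5th to 95th. Of the 23 regulators 6 lie above 0, with RCHY1 highest at 1.44.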

How the data were processed

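The data are 6 Affymetrix arrays, 3 KD and 3 NC, and their titles give group and number. The source names of NC replicates 2 and 3 give another cell line number than their characteristics, which read A549, and both were used as A549. The authors' deposited table of 49395 probe sets was used as log2 values; the range of values points to that base. Summarisation and normalization are not given in the sources used here; how far they compress changes is unknown. A change is relative to most other genes. Background per probe set was not measured, and precision is limited by having 6 arrays.

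Platform annotation gave 45278 probe sets 1 symbol, 1333 several and 2682 none, and 102 were controls. Each gene was read from its brightest probe set with 1 symbol, by the mean of all 6 arrays. All 18244 genes were fitted with limma 3.58.1 in R 4.3.3 (lmFit, eBayes, two-sided), with Benjamini-Hochberg adjustment over all of them and a threshold of 0.05. Residual degrees of freedom were 4 and prior ones 4.67, and the procedure was tested on simulated data. No filter on dim genes was applied; dim means below the 40th percentile of gene means. Pairs of related genes were compared by exact permutation of within-array differences; BTG2 had been paired with BTG1, which could not be run. RefSeq promoter windows (GRCh38.p14) were searched with Python 3.11.15.

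The members, lists, roles and tests were chosen with earlier results of these data known; the search for p53 sites and its mismatch limits were chosen after seeing the data. All 35 members were to be accounted for, with every array's value for those changed at least 2-fold, those that fell and the pairs. Of the other 2 lists, up to 4 called genes with the largest changes were to be named; CDKN1A, PMAIP1, ATM and CDKN2A were named besides.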

Additional observations from a re-analysis of the deposited data

How the results depend on the processing

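Quantile normalization, median centring, trend and robust fitting, array weights, averaging probe sets per gene, the next brightest probe set, leaving out probe sets with an x or s suffix, leaving out dim genes, treat with a limit of 0.2, leaving out single arrays and an adjusted p under 0.01 were tried. The number of p53 targets that rose ranged from 15 (treat) to 23 (mean of probe sets), and 13 of the 20 kept their call in every alternative run. The 2 falls became 1 without x or s probe sets, without dim genes, with treat and at 0.01, and 1 to 3 with an array left out. The median change was 0.45 without dim genes and 0.38 to 0.44 with an array left out. Of the other p53 targets, 1 was called lower with array weights, the replicate block, trend and robust fitting, the mean of probe sets, the next brightest probe set or no dim genes, and 0 to 1 with an array left out. Of the regulators, 2 rose with trend and robust fitting or the mean of probe sets. Their falls numbered 5 with the next brightest probe set, without x or s probe sets and at 0.01, 4 with treat, and 5 to 9 with an array left out. Directions turned for 3 genes near 0: BTG1 was at -0.0068 with array weights and -0.018 to 0.073 with an array left out; PHLDA3 at 0.046 with the mean and 0.0074 with the next brightest probe set, and at -0.068 to 0.022 with an array left out, above 0 without KD replicate 1 or 3 or NC replicate 1 or 3; and RNF144B at 0.043 with the next brightest probe set and at -0.18 to 0.034 with an array left out, above 0 without KD replicate 2 or 3 or NC replicate 3. Of genes with larger changes, ASTN2 was at -0.034 with the next brightest probe set and TP53I11 at 0.12 without x or s probe sets. The causes of these changes were not tested.

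Deviations of same-numbered arrays from their group means correlated at 0.25, 0.26 and -0.096, and those of differently numbered arrays at -0.37 to 0.29. Such deviations constrain each other within a group, so these values cannot decide whether the samples were paired. With the replicate number as a block 20 p53 targets rose and 2 fell, all genes numbered 3262 higher and 3014 lower, and the pair differences of 1.04 and 0.38 had an exact sign-flip p of 0.25, the smallest that 3 pairs allow. Median centring moved the median of all genes to -0.040.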
